A study of Mus musculus with 6 samples.

Results

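Carriers that take up organic anions were followed in the livers of KRAP-/- mice and of their wild-type littermates. They are 7 genes, 5 of the SLCO family (Slco1a1, Slco1a4, Slco1b2, Slco2a1 and Slco2b1), 1 of the SLC22 family (Slc22a7) and the bile salt importer Slc10a1. They were chosen by family, after the genotype differences of Slco1a1 and Slc22a7 in these same livers had been seen, so the differences given for the 7 genes are a description and no p-value is printed for them. The number of member probesets past the threshold is given beside the share over all probesets, and again where the processing was varied. It is not a test of the members. Every probeset annotated to exactly one of these symbols was taken, which gave 18 of the 45037 probesets on the array once control probesets were left out. The KRAP-/- group was 3 mice that lack both intact copies of KRAP in every tissue, through replacement of several exons by a neomycin cassette, and the wild-type group was 3 littermates, 1 for each KRAP-/- mouse. All 6 mice were 32 weeks old, of a line backcrossed to C57BL6/J, and fed normal chow. Total liver RNA of each mouse was hybridized to 1 Affymetrix whole-genome mouse array. KRAP itself, listed as Itprid2, had 1 probeset, whose signal averaged 21.0 ± 0.85 in the 3 KRAP-/- livers and 23.6 ± 1.15 in the 3 wild-type livers (SD), and which checks nothing about the deletion, since where it lies relative to the replaced exons is not known here. The sex of these mice is not given in the sources used here, but the brightest probeset of Xist, the X-inactivation RNA, had signals of 66.3 to 85.6 and no probeset of the Y-linked genes Eif2s3y, Kdm5d and Uty read above 0.526, so all arrays read as female.

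Liver cells take up bile salts, bilirubin, steroid and thyroid hormone conjugates and many drugs across the sinusoidal membrane, which faces the blood. The SLCO proteins of liver cells, also named organic anion transporting polypeptides, do this without sodium and accept a broad range of large anions. Slc10a1 carries conjugated bile salts together with sodium. SLC22 proteins such as Slc22a7 carry smaller organic anions. In mice, Slco1a1 is known to be more abundant in male than in female liver. Signals below are in units of the median of each array, so that a value of 1 is the median probeset of that liver, and log2 fold changes and their standard errors come from a limma model in which littermates form a block.

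Slco1a1, Slco1a4 and Slco1b2 lie in one cluster on chromosome 6, and the stretch around the annotated start of each is shown. Slco1a1 was lower in KRAP-/- liver, while the differences of its neighbours were small. At their brightest probesets the log2 fold changes were 0.23 for Slco1a4 and 0.08 for Slco1b2, with standard errors of 0.09 and 0.08. Whether the motifs bear on any of these values was not tested. Each line holds 250 bases before the start and 50 after it, from RefSeq on GRCm38.p6, 5′ to 3′ on the strand of the gene. The windows are chr6:141946913-141947212 on the minus strand for Slco1a1, chr6:141856171-141856470 on the minus strand for Slco1a4 and chr6:141629268-141629567 on the plus strand for Slco1b2. Capitals mark matches, on either strand, to the HNF1 motif GTTAAT, to a STAT site of TTC and GAA 3 bases apart, or to the nuclear receptor motif AGGTCA.
Slco1a1: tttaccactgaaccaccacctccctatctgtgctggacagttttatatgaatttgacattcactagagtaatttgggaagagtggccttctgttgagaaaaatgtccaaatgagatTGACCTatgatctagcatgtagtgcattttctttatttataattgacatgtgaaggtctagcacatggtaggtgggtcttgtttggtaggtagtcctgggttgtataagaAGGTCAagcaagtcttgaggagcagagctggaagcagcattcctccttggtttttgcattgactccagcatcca
Slco1a4: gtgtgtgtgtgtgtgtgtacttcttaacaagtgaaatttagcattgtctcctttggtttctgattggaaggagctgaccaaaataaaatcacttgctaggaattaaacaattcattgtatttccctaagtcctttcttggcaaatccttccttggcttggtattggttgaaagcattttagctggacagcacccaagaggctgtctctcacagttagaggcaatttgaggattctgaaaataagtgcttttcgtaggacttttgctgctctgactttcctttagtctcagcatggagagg
Slco1b2: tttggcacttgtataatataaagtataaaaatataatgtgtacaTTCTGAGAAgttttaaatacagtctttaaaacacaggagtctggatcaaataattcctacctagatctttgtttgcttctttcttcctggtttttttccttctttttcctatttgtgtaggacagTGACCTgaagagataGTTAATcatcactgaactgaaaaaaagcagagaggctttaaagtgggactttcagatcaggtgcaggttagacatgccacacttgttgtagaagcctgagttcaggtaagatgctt
The Slco1a1 window held 2 nuclear receptor motifs and no match to the others. The Slco1b2 window held 1 match to each of the 3 motifs, none of which overlapped another, and the Slco1a4 window held none. Over 32851 RefSeq promoter windows of the same length, 7.10% held the HNF1 motif, 8.30% the STAT site and 16.3% the nuclear receptor motif. Promoter entries were found for 6 of the 7 genes, in 9 windows, and the other 6 windows held no HNF1 motif. Among those windows, STAT sites lay in windows of Slco2b1 and Slc10a1, and the nuclear receptor motif in a window of Slc10a1. A match describes these letters and is not a binding site that was measured.

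Of the 18 probesets, 16 had a mean over the 6 arrays of at least 0.5 and were tested, and in these the mean of either genotype was at least 0.626. The other 2 were a probeset of Slco1b2 and one of Slco2b1. Slco1a1 and Slc22a7 were lower in KRAP-/- liver at each of their probesets, and the other 5 genes had smaller differences of either sign at their brightest probesets. At an adjusted p under 0.05 over all 28531 probesets tested, 3 of the 16 member probesets were called lower and none higher, while over all probesets 0.978% were called lower and 0.431% higher, 1.41% in either direction. Since the members were chosen with this contrast known, nothing is read from that count. By a 1.5-fold rule in each of the 3 pairs, taken from the study's methods but applied here to every probeset with no limit on dim ones, so that its counts are not those of the study's own gene list, the same 3 probesets were down, against 2.88% of all probesets and 1.38% of those tested, and 1 was up, against 2.30% of all probesets. The median log2 fold change was 0.03 over the 16 member probesets and −0.04 over all probesets tested.

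**Figure D1:**
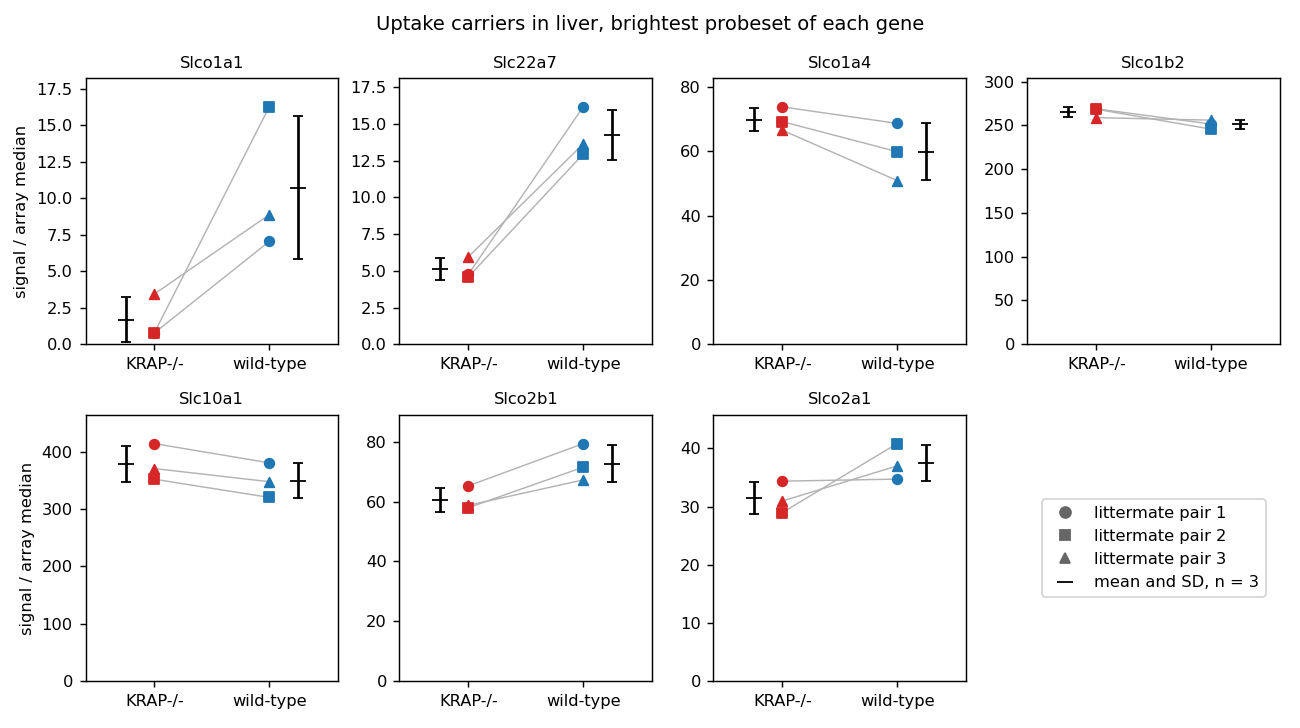
Signal in array medians, drawn from 0 on a linear scale, for each of the 7 genes at its brightest probeset in KRAP-/- and wild-type liver. Points are single mice, marked by littermate pair, lines join littermates, and the bars beside them show mean and SD (3 mice a group). For Slco1a1 and Slc22a7 all KRAP-/- points lie below all wild-type points, with Slco1a1 at 0.775 to 3.44 against 7.04 to 16.3.

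Slco1a1 encodes Oatp1a1, a sinusoidal carrier of bile salts and steroid conjugates. Its brightest probeset, 1420379_at, read 0.775, 0.788 and 3.44 in the KRAP-/- livers of pairs 1, 2 and 3, against 7.04, 16.3 and 8.87 in the wild-type livers. The groups did not overlap, the KRAP-/- liver of pair 3 stood above the other two, and the wild-type liver of pair 2 was the highest. KRAP-/- livers averaged 1.67 ± 1.54 and wild-type livers 10.7 ± 4.88 (SD, 3 mice a group), and the fitted log2 fold change was −2.97 with a standard error of 0.44. The ratio of KRAP-/- to wild-type was 0.110 in pair 1, 0.0484 in pair 2 and 0.388 in pair 3. Without pair 2 the log2 fold change was −2.27 and without pair 3 it was −3.78, so its size depends on these pairs.

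The dimmer Slco1a1 probeset, 1449844_at, is annotated to the same transcript record and is not a second independent measure of the gene. It read 0.495, 0.596 and 1.61 in KRAP-/- liver, against 5.62, 11.1 and 7.03 in wild-type liver. Again the groups did not overlap, and the KRAP-/- liver of pair 3 and the wild-type liver of pair 2 were the highest of their genotype. Its log2 fold change was −3.28 with a standard error of 0.34. Signals below 1 in pairs 1 and 2 are dimmer than the median probeset and not shown to be above background, so the fold at either probeset is uncertain.

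Slc22a7 encodes Oat2, a carrier of small organic anions, nucleotides and prostaglandins. Its only probeset, 1451460_a_at, read 4.77, 4.59 and 5.96 in KRAP-/- liver, against 16.2, 12.96 and 13.6 in wild-type liver. The groups did not overlap, and the spread within each was small beside the gap. KRAP-/- livers averaged 5.11 ± 0.741 and wild-type livers 14.3 ± 1.69 (SD, 3 mice a group), and the fitted log2 fold change was −1.48 with a standard error of 0.14. The ratios were 0.295, 0.354 and 0.436 in pairs 1, 2 and 3, so pair 3 had the smallest difference at Slc22a7 as at Slco1a1.

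**Figure D2:**
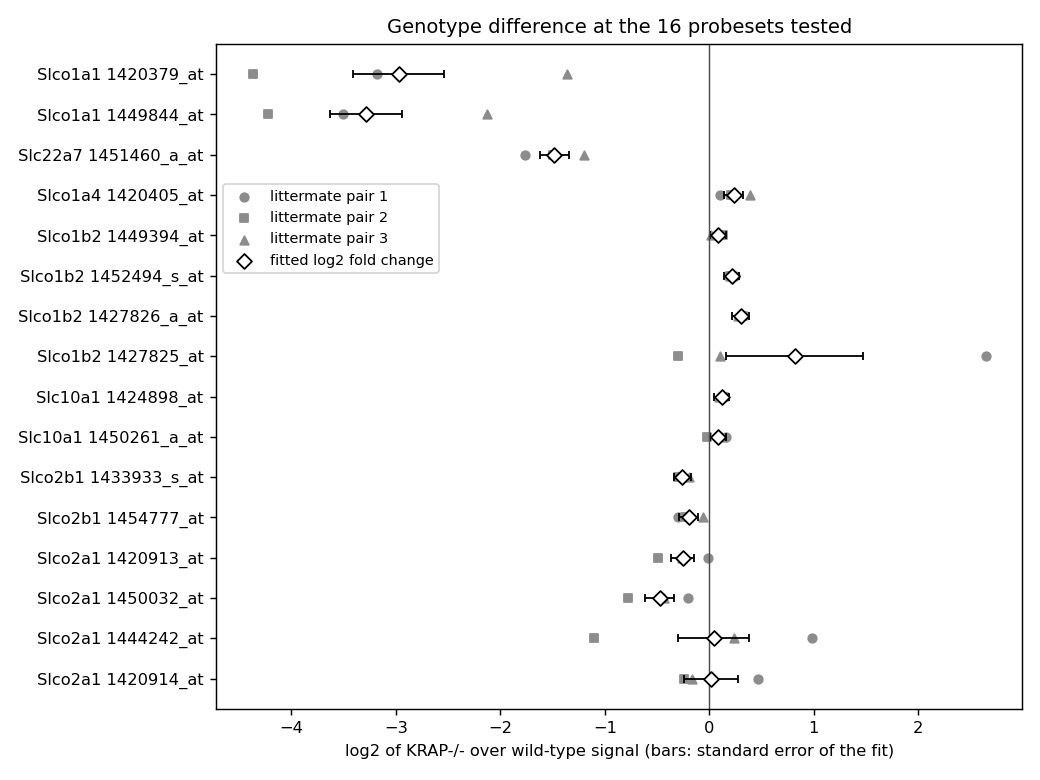
Log2 of the KRAP-/- over the wild-type signal at the 16 probesets tested. Grey points are the ratios in single littermate pairs, diamonds the fitted log2 fold change with its standard error. The 2 probesets of Slco1a1 and the 1 of Slc22a7 lie farthest to the left, at −2.97, −3.28 and −1.48.

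Slco1a4 encodes Oatp1a4, a carrier of bile salts and cardiac glycosides that is also found at the blood-brain barrier. It read 73.8, 69.2 and 66.6 in KRAP-/- liver, against 68.7, 59.9 and 50.9 in wild-type liver. Each KRAP-/- liver was above its littermate, with ratios of 1.07, 1.16 and 1.31, while the groups overlapped. The log2 fold change was 0.23 with a standard error of 0.09.

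Slco1b2 encodes Oatp1b2, the liver carrier of unconjugated bile acids, bilirubin and statins, and is the mouse counterpart of the human SLCO1B genes. Its brightest probeset, 1449394_at, read 269, 269 and 259 in KRAP-/- liver, against 252, 246 and 256 in wild-type liver. These groups did not overlap, but the gap was small, with a log2 fold change of 0.08 and a standard error of 0.08. At 1452494_s_at the values were 186, 204 and 225 in KRAP-/- and 157, 177 and 196 in wild-type liver, and at 1427826_a_at they were 44.5, 56.0 and 66.9 in KRAP-/- and 35.9, 44.9 and 55.4 in wild-type liver. At both of these, littermates ranked alike, with pair 3 the highest in either genotype, and each KRAP-/- liver was 1.15 to 1.247 times its littermate. The log2 fold changes there were 0.21 and 0.30, with standard errors of 0.07 and 0.08. A dim probeset, 1427825_at, had a log2 fold change of 0.82 with a standard error of 0.65, in which the ratio was 6.26 in pair 1, 0.814 in pair 2 and 1.07 in pair 3. The dimmest, 1452569_at, was not tested. It read 0.396, 0.549 and 0.460 in KRAP-/- liver, against 0.0517, 0.279 and 0.0422 in wild-type liver, and was the member probeset that the 1.5-fold rule took as up, on signals not shown to be above background.

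On chromosome 6 the order of protein-coding genes in the GRCm38.p6 table was Slco1c1, Slco1b2, Gm5724, Slco1a4, Slco1a1, Gm6614, Slco1a6, Slco1a5 and Iapp. Slco1c1, Slco1a6 and Slco1a5 read at most 0.371, 0.529 and 0.776 on any array and were not tested. By the ratio of KRAP-/- to wild-type means at their brightest probesets, the neighbours Slco1a4 and Slco1b2 were at 1.17 and 1.06, while Slco1a1, whose fold is uncertain for the reason given above, was lower in each pair.

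Slc10a1 encodes Ntcp, the sodium-dependent importer of conjugated bile salts. Its brightest probeset, 1424898_at, read 414, 352 and 371 in KRAP-/- liver, against 381, 320 and 348 in wild-type liver. Each KRAP-/- liver was slightly above its littermate and the groups overlapped, with a log2 fold change of 0.12 and a standard error of 0.07. The other probeset, 1450261_a_at, had a log2 fold change of 0.08 with a standard error of 0.08, and pair 2 was at a ratio of 0.984.

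Slco2b1 encodes Oatp2b1, a carrier of steroid sulfates found in liver and gut. Its brightest probeset, 1433933_s_at, read 65.3, 57.9 and 58.7 in KRAP-/- liver, against 79.4, 71.5 and 67.2 in wild-type liver. The groups did not overlap and the ratios were 0.822, 0.810 and 0.873, with a log2 fold change of −0.26 and a standard error of 0.08. At 1454777_at the log2 fold change was −0.20 with a standard error of 0.09, and the groups overlapped. The third, 1458171_at, read at most 0.532 on any array and was not tested.

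Slco2a1 encodes the prostaglandin transporter, which in liver is found in endothelial cells. Its brightest probeset, 1420913_at, read 34.4, 29.0 and 31.0 in KRAP-/- liver, against 34.7, 40.8 and 37.0 in wild-type liver, with a log2 fold change of −0.26 and a standard error of 0.11. At 1450032_at it read 7.07, 6.45 and 7.85 in KRAP-/- liver, against 8.16, 11.1 and 10.6 in wild-type liver, with a log2 fold change of −0.47 and a standard error of 0.14. At neither probeset did the groups overlap. The 2 dimmest probesets had log2 fold changes of 0.04 and 0.02, with pairs on both sides of 0. In whole liver, fewer cells of a type and less RNA per cell cannot be told apart. The 7 endothelial markers, all tested and none called, summed to 79.8 to 81.6 in KRAP-/- and 84.8 to 92.5 in wild-type liver, and none was at 0. Of the 7, 4 had a log2 fold change below 0 and 3 above, with a median of −0.04, and the brightest, Clec4g, averaged 40.0 in KRAP-/- and 45.7 in wild-type liver. The part of this in the Slco2a1 values was not tested.

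Over the 16 probesets tested, the KRAP-/- livers were all below the wild-type livers at 6, against 12.3% of all probesets tested, and all above at 1, against 7.80%. The 6 were the 2 of Slco1a1, the 1 of Slc22a7, 2 of Slco2a1 and 1 of Slco2b1. Since the differences of Slco1a1 and Slc22a7 were known beforehand and probesets of one gene are not independent, nothing is read from these counts. The ranges of summed hepatocyte markers overlapped. The 6 hepatocyte markers, among them albumin, summed to 2872 to 3293 in KRAP-/- and 3025 to 3092 in wild-type liver, and none was called.

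The rest of the SLCO, SLC22 and SLC10 families was taken by symbol, as 34 genes that are not among the 7. Of these, 19 were tested at their brightest probeset. Slc22a30 was the gene that fell, none rose and the other 18 did not pass, where 1.31% of all genes tested were called lower and 0.333% higher. Slc22a30, a SLC22 gene of the organic anion carrier group, read 36.0, 37.5 and 40.0 in KRAP-/- liver, against 58.4, 63.7 and 51.8 in wild-type liver. The groups did not overlap, and the log2 fold change was −0.61 with a standard error of 0.10 (adjusted p = 0.023 from limma, and 0.075 on the deposited scale). It has close relatives on the array, whose probesets may share its transcripts. The median log2 fold change of the 19 genes was −0.11, against −0.08 over all 13217 genes tested. The other 15 genes had no probeset with a mean of 0.5.

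**Figure D3:**
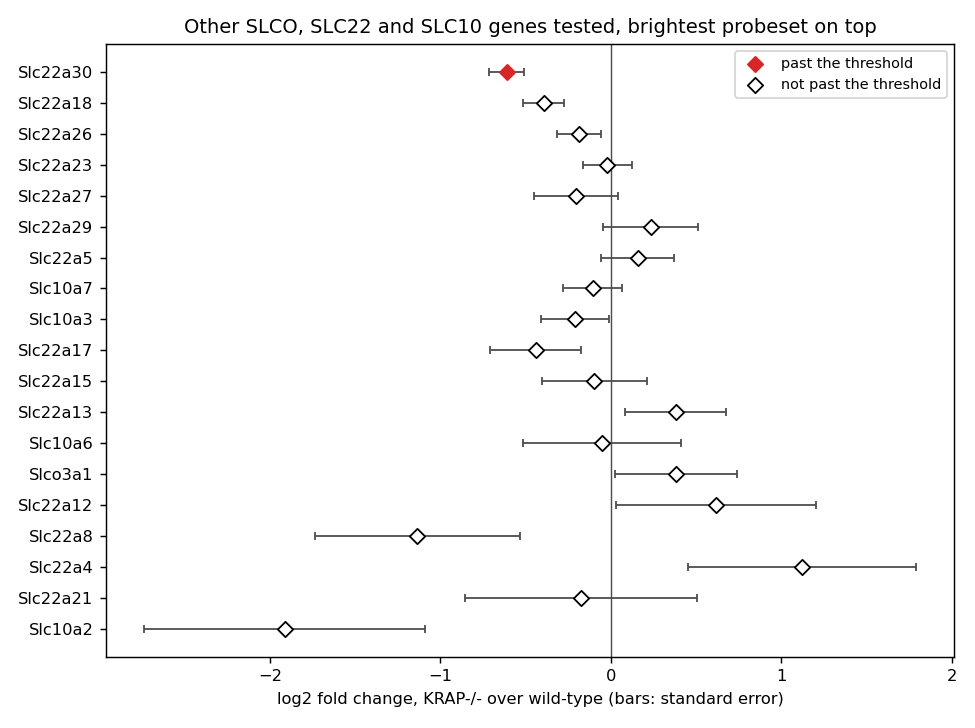
Log2 fold change of KRAP-/- over wild-type liver, with its standard error, for the 19 other SLCO, SLC22 and SLC10 genes tested, ordered from the brightest at the top to the dimmest. Slc22a30, at −0.61, is the filled point, and the dim genes at the bottom have the widest errors.

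Of 22 genes that regulate the uptake carriers or receive the hormones that do, 19 were measured. Of these 1 fell, none rose and the other 18 missed the threshold, beside 1.31% lower and 0.333% higher over all genes. The one that fell was Esr1, the estrogen receptor alpha, which read 27.9, 23.01 and 21.9 in KRAP-/- liver, against 37.5, 39.8 and 35.5 in wild-type liver. The groups did not overlap, with a log2 fold change of −0.64 and a standard error of 0.10 (adjusted p = 0.020 from limma). Its 2 dimmer probesets had log2 fold changes of −0.52 and −0.15 and did not pass. Ppara, the fatty acid receptor PPAR alpha, read 96.1, 91.98 and 83.1 in KRAP-/- liver, against 38.1, 58.7 and 75.0 in wild-type liver. These groups did not overlap either, but its log2 fold change of 0.71, with a standard error of 0.18, missed the threshold (limma adjusted p = 0.10). Other regulators missed it about as closely. They were Stat5b at −0.46, Nr0b2 at 0.52 and Ghr at −0.31 (limma adjusted p = 0.117, 0.119 and 0.128). Ppara and these genes are named here after their values were seen.

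Of 20 genes that conjugate, bind or pump out what the carriers bring in, 17 were measured. Of these 1 fell, none rose and the other 16 missed the threshold, beside the same shares of 1.31% and 0.333% over all genes. The one that fell was Abcb11, the bile salt export pump of the canalicular membrane. It read 105, 100.4 and 113 in KRAP-/- liver, against 161, 144 and 135 in wild-type liver, and its log2 fold change was −0.47 with a standard error of 0.09 (adjusted p = 0.046 from limma). The groups did not overlap. The call was lost on the deposited scale (0.19), after quantile normalization (0.055), and when pair 1 (0.088) or pair 2 (0.0995) was left out, each value being the limma adjusted p, which ran from 0.00775 to 0.435 over 13 alternatives.

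The genes whose log2 signal followed the pattern of Slco1a1 and of Slc22a7 most closely over the 6 arrays were sought among 11044 genes with a mean of at least 1. With 2 separate genotypes and that many genes, high correlations are a description only, and genes of one array share its scaling. For Slco1a1 they were Kif3a, Eng, Pea15a, Ccdc43 and Tbc1d32, with Pearson's r of 0.982 to 0.987. Their own differences were smaller, and Eng, endoglin of the endothelium, read 23.2, 22.1 and 25.9 in KRAP-/- liver, against 30.3, 33.0 and 29.8 in wild-type liver. For Slc22a7 they were Aqp8, Acly, Rnh1, Thy1 and Ndufaf1, with r of 0.993 to 0.998. Aqp8, a water channel of the hepatocyte, read 24.0, 25.01 and 29.5 in KRAP-/- liver, against 64.8, 56.2 and 56.4 in wild-type liver. Acly, which makes cytosolic acetyl-CoA for lipid synthesis, read 47.9, 48.5 and 58.2 in KRAP-/- liver, against 123, 111 and 113 in wild-type liver. In both genes, as in Slc22a7, the KRAP-/- liver of pair 3 and the wild-type liver of pair 1 were the highest of their genotype.

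**Figure D4:**
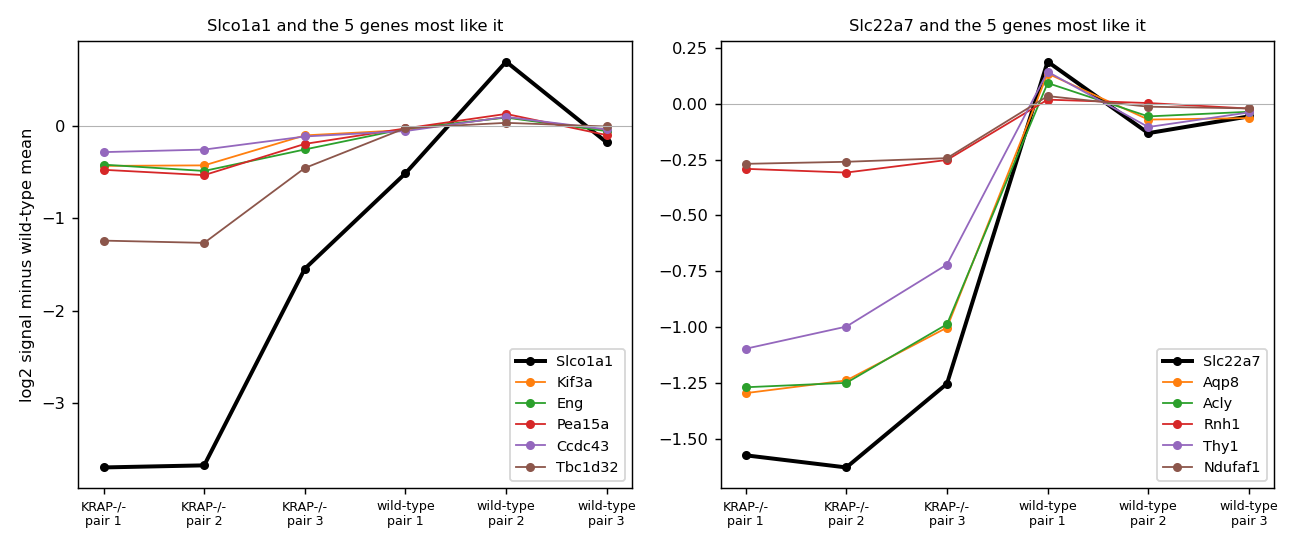
Log2 signal of each array minus the wild-type mean of that gene, for Slco1a1 (left) and Slc22a7 (right), each as a thick black line, with the 5 genes of highest Pearson's r over the 6 arrays. Aqp8 and Acly lie close to Slc22a7 on all 6 arrays, while the genes most like Slco1a1 cover a narrower range than it does.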

How the data were processed

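The 6 single-colour Affymetrix arrays held liver RNA from 3 KRAP-/- mice and from 3 wild-type littermates. The authors deposited linear signal intensities from GCOS software, and the per-chip and per-gene normalization that the study's methods describe was not in them. Signals were scaled to the array median (20.2 to 23.4 in the KRAP-/- arrays, 19.1 to 22.6 in the wild-type arrays), and 64 control probesets were left out. After a floor of 0.1 and log2 transformation, limma 3.58.1 (R 4.3.3) was run on the 28531 probesets whose mean reached 0.5, blocking on littermate pair, with an intensity trend, and p-values were adjusted by Benjamini-Hochberg over all of them at a threshold of 0.05. The littermate pairs come from the design text, and the deviations of littermates from their genotype means had correlations of 0.0429, 0.00954 and −0.0124. The number of arrays limits the precision.

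Genes were named from the platform annotation, in which 34945 probesets had 1 symbol, 932 several and 9160 none, with symbols updated through Entrez IDs for 34741. Lists were counted at the brightest probeset of each gene. Members, lists and the naming rule were chosen with earlier results of these data known. The rule names all members, and in each list the genes past the threshold, up to 6. Alternatives were other scalings, floors and limits, no block, no trend, no cross-hybridizing probesets and leaving out each pair. The tables were built in Python 3.11.15, pandas 2.3.3, numpy 2.4.6, scipy 1.17.1 and matplotlib 3.10.9. Summed marker signals add probesets of different brightness, so the brightest weigh most, and they were compared only between arrays.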

Additional observations from a re-analysis of the deposited data

How the results depend on the processing

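Over the 13 alternatives, log2 fold changes were −3.78 to −2.27 and −3.86 to −2.82 at the 2 probesets of Slco1a1, and −1.63 to −1.35 at Slc22a7. Most alternatives could not move these estimates. The floors, the limits on dim probesets, the block, the trend and the cross-hybridizing probesets left them exactly as in the main fit. Only other scalings, a pseudocount and leaving out pairs could change them, so the shared sign is not a test of these genes. With no limit on dim probesets or with no intensity trend, no probeset of the arrays passed in either direction (from 279 lower and 123 higher), so the counts were 0 for the members and for every gene list, although 4551 and 3089 probesets had an unadjusted p under 0.05. Without pairs 1, 2 and 3 in turn, the probesets called lower and higher numbered 267 to 522 and 110 to 338. The values as deposited left 0 of the other carriers and 0 of the partner genes, and quantile normalization 0 of the partner genes. Leaving out each pair gave 1 to 2 other carriers lower, with Slc22a27 gained without pair 2 and Slc22a18 without pair 3. It gave 1 to 2 regulators lower and 1 to 2 higher. Gained as higher were Nr0b2 without pair 1, Ppara without pair 2, and Ppara and Ahr without pair 3. Stat5b was gained as lower without pair 3. Among the partner genes, leaving out each pair gave 0 to 2 lower and 0 to 1 higher. Cyp7a1 was gained as lower and Gsta2 as higher without pair 1, and Sult2a8 as lower without pair 3. For the sex-biased genes, leaving out each pair gave 2 to 3 lower and 0 to 1 higher in either list. Of the male-biased genes Cyp2d9 was gained as higher without pair 1 and Hsd3b5 as lower without pair 3, and of the female-biased genes Hao2 as lower without pair 1, Sult3a1 as higher without pair 2 and Acot3 as higher without pair 3. The probeset that the 1.5-fold rule took as up was lost (0) with a 2-fold limit or a mean of at least 1. With no replicate block, that is without the littermate pairing, 3 member probesets were called lower and 0 higher, beside 255 and 93 of all 28531 tested. No call on a gene list changed there. The median log2 fold change of all probesets was −0.04 to 0.01 over the scalings. Slco1a1 in KRAP-/- liver lies near the array median, where signal over background limits its fold.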

Other observations

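Genes known to differ between the sexes in mouse liver were counted because Slco1a1 is one of them. Of 14 male-biased genes 7 were tested, 2 fell, none rose and 5 did not pass, where 1.31% of all genes tested were called lower and 0.333% higher. Nudt7, a peroxisomal hydrolase of coenzyme A compounds, read 55.8, 57.9 and 62.2 in KRAP-/- liver, against 171, 130 and 110 in wild-type liver (log2 fold change −1.20, limma adjusted p = 0.0039). For Cyp7b1, an oxysterol hydroxylase, the log2 fold change was −0.80 (limma adjusted p = 0.011). Of 14 female-biased genes 8 were tested, 2 fell, none rose and 6 did not pass, beside the same 1.31% and 0.333%. Those 2 were Cyp3a16 and Cyp3a44, of a family whose members share sequence, and Cyp3a44 read 2.19, 2.38 and 2.50 in KRAP-/- liver, against 7.80, 14.4 and 15.4 in wild-type liver. The log2 fold change of Cyp3a44 was −2.35 (limma adjusted p = 0.00087). Cyp3a16 read 1.30, 0.0310 and 0.0442 in KRAP-/- liver, against 4.85, 9.39 and 19.6 in wild-type liver. With 2 of its KRAP-/- signals under the floor of 0.1, the floor sets the size of its log2 fold change, which was −5.35 (limma adjusted p = 0.0207), −6.31 with a floor of 0.01, −4.47 with a floor of 0.25, and −7.08 to −4.22 when single pairs were left out. Both lists held genes that fell, and the median log2 fold changes were −0.16 for the 7 and −0.03 for the 8, against −0.08 over all genes tested. All arrays read as female, and the part of sex-biased expression in the Slco1a1 values was not tested.

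The 5 Kupffer cell markers summed to 112 to 116 in KRAP-/- and 134 to 158 in wild-type liver, and Clec4f, the lectin that marks these macrophages, fell by 0.54 on the log2 scale (limma adjusted p = 0.0255). All 5 had a log2 fold change below 0, and the other 4 did not pass. The 4 lymphocyte markers measured summed to 8.06 to 9.62 in KRAP-/- and 11.3 to 13.7 in wild-type liver, and the 3 tested were below 0. Most of this sum was Ptprc, which averaged 6.81 in KRAP-/- and 9.42 in wild-type liver. Ptprc is not restricted to lymphocytes, so the sum does not stand for lymphocytes alone. Cd3e, too dim to be tested, went the other way, with ratios of 1.30, 1.61 and 1.66 in pairs 1, 2 and 3. The 4 cholangiocyte markers measured summed to 3.82 to 5.43 in KRAP-/- and 5.16 to 6.35 in wild-type liver. All 4 had a log2 fold change below 0, with a median of −0.52, but Epcam was at −0.04 with a standard error of 0.29. These signals were dim, and Krt7 read 0.108 in the KRAP-/- liver of pair 2, close to the floor of 0.1. The 5 stellate cell markers summed to 197 to 205 in KRAP-/- and 168 to 192 in wild-type liver, with 2 below 0 and 3 above. No marker of these 3 cell types passed. The 4 kidney tubule markers measured summed to 1.65 to 2.57 in KRAP-/- and 2.16 to 2.37 in wild-type liver. Adiponectin, the adipocyte marker measured, read 0.0318 to 0.253 in KRAP-/- and 0.444 to 2.201 in wild-type liver and did not pass. The part of these cells in the values of the uptake carriers was not tested.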
